A study of Mus musculus with 32 samples.

Results

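The mitochondrial ribosomal proteins are the nuclear-encoded proteins of the ribosome that works inside mitochondria, and their genes were examined here for transcript level and for binding by the RNA-binding protein IGF2BP3 in leukemic mouse cells. Members were the genes whose symbol is Mrpl or Mrps followed by a number and at most 1 letter and that are listed in the expression tables of both cell types. This rule found 75 genes, 47 of the large subunit (Mrpl) and 28 of the small subunit (Mrps), among 23620 genes in both tables. Mrpl33 and Mrps6 are listed in the CD11b+ table alone and were not counted. The rule used no measured value. The 75 genes lie on 17 chromosomes and all have an Ensembl identifier in GENCODE release M21.

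Mitochondrial ribosomes translate the few proteins that the mitochondrial genome encodes, which are core subunits of the respiratory chain and of ATP synthase. Their proteins are made on cytoplasmic ribosomes from nuclear mRNAs and are imported, where they assemble with mitochondrial rRNA. Many have bacterial homologues and keep the bacterial number, while others exist only in mitochondria. IGF2BP3 is an oncofetal protein that binds RNA and is known for stabilising its target mRNAs.

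The study asked which transcripts IGF2BP3 binds and regulates in leukemia driven by MLL-Af4. Lin- cells were lineage-depleted C57BL/6 bone marrow cells transduced with an MSCV retrovirus that carries FLAG-tagged MLL-Af4, selected with G418 and grown in culture with cytokines. Magnetic beads were used to select CD11b+ cells from leukemic mice, from spleen tumours for RNA-seq. The names of the CD11b+ eCLIP libraries begin with bm, so whether these cells came from spleen or bone marrow is not settled, and CD11b+ peaks and levels may be from different tissues. RNA-seq compared WT/MLL-Af4 with I3KO/MLL-Af4 cells, 3 libraries of each genotype in each cell type, where I3KO is a germline deletion of Igf2bp3, the gene of IGF2BP3, so that all groups carry MLL-Af4. eCLIP, in which RNA crosslinked to an immunoprecipitated protein is sequenced, was done on WT/MLL-Af4 cells with an antibody to IGF2BP3, with 6 libraries from Lin- cells (3 biological, 3 technical) and 4 from CD11b+ cells (2 biological, 2 technical), each beside a size-matched input (smInput). Donors and recipients of the transplants were 8-week-old females. Nothing pairs a technical with a biological library.

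After removal of peaks that overlap smInput peaks, each Lin- eCLIP library held between 4040 and 10042 peaks and each CD11b+ one between 7085 and 10054. Read depth is unknown. For RNA-seq, only the normalized count averaged over the 6 libraries behind each table was used, so that no value per library or genotype, no spread and no check of the deletion can be given. Igf2bp3 itself had a mean over both genotypes of 2041 in Lin- cells and 1355 in CD11b+ cells. The labelled cell types were checked against marker lists. All 6 stem and progenitor markers (Kit, Cd34, Flt3, Gata2, Meis1 and Sox4) stood at a higher percentile in Lin- cells. Itgam, the gene of CD11b, had a mean of only 16.97 in the CD11b+ table and is not listed in the Lin- table. Of the 7 monocyte and macrophage markers listed in both tables, all but Cd68 (97.8th percentile in Lin- and 97.2th in CD11b+ cells) stood higher in CD11b+ cells. Csf1r (95.7th and 97.1th) and Lyz2 (99.8th and 99.9th) were high in both and do not separate them, while Cd14 stood at the 80.2th and 94.1th and Adgre1 at the 80.1th and 92.6th. In CD11b+ cells the erythroid genes Hba-a1 and Hbb-bs stood at the 95.8th and 95.4th, against the 38th and 57.3th in Lin- cells. The part of such other cells in the values below was not tested.

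The sites on which the eCLIP results turn are shown first. At 5 sites of members bound mostly in Lin- cells, the peak lay at the end of an intron and ran up to or into the next exon. They are given 5′ to 3′ on the transcribed strand of GRCm38 (mm10), with exon bases of the longest coding transcript in capitals; where the peak ended before the tenth exon base, the window was carried on to it. The windows are chr4:155803764-155803842 for Mrpl20, chr6:125192466-125192534 for Mrpl51, chr17:46648414-46648481 for Mrpl2, chr11:120485610-120485666 for Mrpl12 and chr17:24895739-24895797 for Mrps34, all on the + strand.
Mrpl20: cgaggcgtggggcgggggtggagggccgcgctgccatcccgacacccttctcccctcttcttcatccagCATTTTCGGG
Mrpl51: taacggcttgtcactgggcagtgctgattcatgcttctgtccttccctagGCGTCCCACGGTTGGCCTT
Mrpl2: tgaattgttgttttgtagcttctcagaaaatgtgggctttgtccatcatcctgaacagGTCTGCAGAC
Mrpl12: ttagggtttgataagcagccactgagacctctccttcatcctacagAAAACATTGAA
Mrps34: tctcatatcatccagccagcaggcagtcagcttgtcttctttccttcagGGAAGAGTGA
All of them end the intron with ag after a stretch rich in c and t. The windows were chosen at intron ends, and intron ends without a peak were not set beside them. These letters are therefore not read as a feature of binding.

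The Mrps26 site (chr2:130564213-130564325, + strand), seen in both cell types, spans a short intron with exon bases on both sides, again in capitals. The Mrpl24 site (chr3:87920856-87920958, + strand) holds the most reads of any member and was seen in CD11b+ cells alone. It lies inside the first intron, away from both ends, and is rich in a and g.
Mrps26: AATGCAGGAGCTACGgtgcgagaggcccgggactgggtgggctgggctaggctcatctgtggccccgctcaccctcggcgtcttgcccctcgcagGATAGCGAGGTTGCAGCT
Mrpl24: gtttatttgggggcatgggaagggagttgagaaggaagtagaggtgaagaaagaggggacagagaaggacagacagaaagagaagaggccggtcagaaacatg

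Of the members, 35 of 75 had a filtered IGF2BP3 peak in at least 1 Lin- library (46.7%, Wilson 95% interval 35.8 to 57.8%), against 29.5% of all genes in both tables. Among CD11b+ libraries, 19 of 75 had one (25.3%, interval 16.9 to 36.2%), against 27.8% of all genes. In both cell types 12 members had a peak, 16% against 19.4% of all genes, and 42 had one in either cell type, 56% against 37.9%. The intervals cover counting error over genes only. At these read numbers, lack of a peak says little about binding.

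The background of all genes includes many with few reads, so the members were also set beside 967 other genes in their own range of level and gene length (between their 10th and 90th percentile of each). Of those genes, 47.5% had a peak in Lin- cells, close to the members' 46.7%, and 36.4% had one in CD11b+ cells, where the members' interval of 16.9 to 36.2% lies just under that value. In both cell types 20% of those genes had a peak, against 16% of the members, and in either cell type 63.9%, against 56%. The call in Lin- cells thus occurred among the members at about the rate of these genes of like level and length. They lie in the members' range but are not matched to them. Their median gene length was 11.03 kb, against 7.894 kb for the members, and their median Lin- percentile per kilobase of exon 74.3, against 81.1. What this does to the shares was not tested. With a peak required in at least 2 libraries, 16 members remained in Lin- cells (21.3%, against 19.9% of all genes and 24.8% of the genes of like level and length). In CD11b+ cells 5 did (6.67%, against 17.7% and 15.3%).

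Within single libraries, members with a peak numbered 14, 13 and 18 in the biological and 9, 7 and 2 in the technical Lin- libraries. In CD11b+ cells they numbered 11 and 10 in the biological and 3 and 2 in the technical libraries. Technical libraries had fewer in both cell types. The share of members ran from 2.67 to 24% in Lin- libraries, where all genes ran from 9.22 to 18.5%, and from 2.67 to 14.7% in CD11b+ libraries, where all genes ran from 14.1 to 18.4%. The members lay below all genes in every CD11b+ library and in Lin- libraries 2, 5 and 6, and above them in Lin- libraries 1, 3 and 4. In the smInput libraries 1 to 3 members had a peak, 1.33 to 4% of them, where all genes ran from 0.584 to 5.19%.

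**Figure D1:**
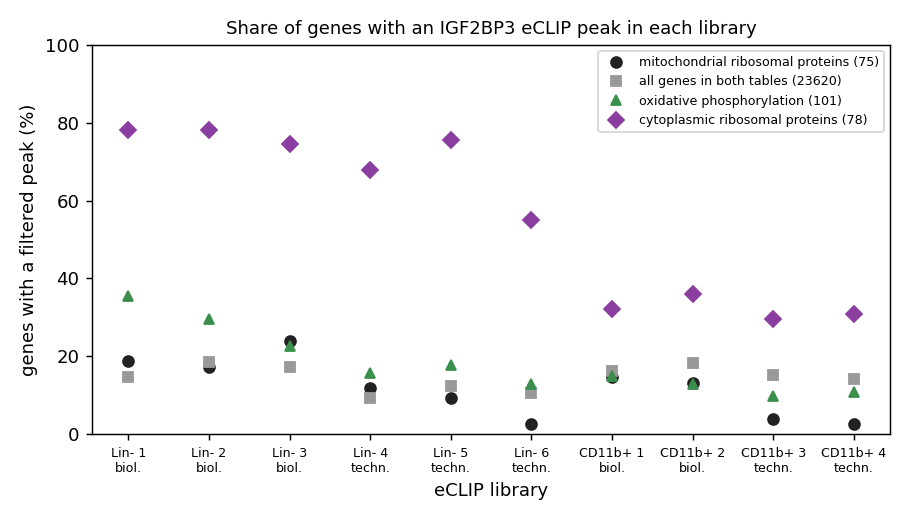
Share of genes (y axis, percent) with a filtered IGF2BP3 peak in each of the 10 eCLIP libraries (x axis) for 4 gene groups, 1 point per group and library. Circles, the 75 members, run from 2.67 to 24%; diamonds, the 78 cytoplasmic ribosomal proteins, lie above all other groups in every library.

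The proteins of the cytoplasmic ribosome, which have the same task outside mitochondria and much higher levels, differed from the mitochondrial ones. A peak was called on 72 of 78 cytoplasmic ribosomal protein genes in Lin- cells (92.3%) and on 49 in CD11b+ cells (62.8%). Nuclear genes of oxidative phosphorylation, whose products join those that mitochondrial ribosomes make, had shares nearer to the members, 50.5% of 101 in Lin- cells and 24.8% in CD11b+ cells. The median mean normalized count of the cytoplasmic set was 9961 in Lin- cells, against 804.5 for the members, and level and peak calls cannot be told apart here.

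Between the subunits, a peak was called on 21 of 47 large subunit genes (44.7%) and 14 of 28 small subunit genes (50%) in Lin- cells. The CD11b+ libraries gave 9 of 47 (19.1%) and 10 of 28 (35.7%). The 35 members with a Lin- peak had a median mean normalized count of 952.6, against 673.3 for the 40 without one. In CD11b+ cells the medians were 584.5 for 19 and 477 for 56. No test was made of these differences between genes.

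The number of reads in a peak, as the last number of the peak name gives it, was small. The median was 4 in the member peaks of each cell type, against 6 in all peaks of Lin- cells and 7 in all peaks of CD11b+ cells. At most 5 reads stood behind 50 of 66 member peaks in Lin- cells and 22 of 27 in CD11b+ cells. Over the 10 libraries the 93 member peaks merged into 60 sites, of which 44 were seen in 1 library and 16 in at least 2, and 7 were seen in both cell types. Of the member peaks in the biological Lin- libraries, 14 of 48 (29.2%) overlapped a peak of another biological Lin- library, against 50.4% for all genes. In CD11b+ cells 4 of 22 did (18.2%), against 42.1%. The 20 members with a peak in a single library therefore rest on 3 to 7 reads each.

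**Figure D2:**
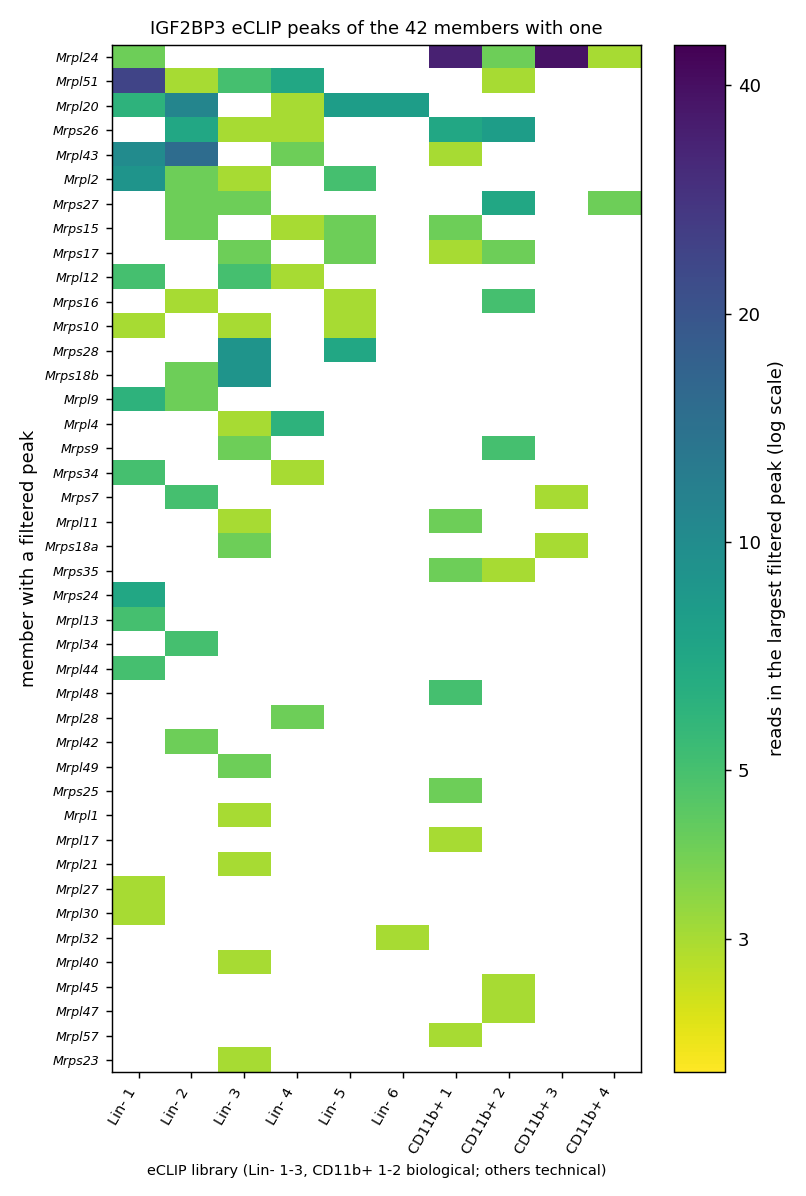
Reads in the largest filtered peak (color, log scale) of each of the 42 members with a peak (rows, ordered by number of libraries) in each eCLIP library (columns); white is no peak. The upper rows hold the members seen in several libraries, Mrpl24 with 34 and 39 reads in CD11b+ libraries 1 and 3, and the lower rows hold those seen in 1.

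Among large subunit members, Mrpl20, whose bacterial homologue acts early in assembly of the large subunit, had a peak at 1 site in 5 of 6 Lin- libraries. The reads there were 6, 11 and 0 in the biological libraries and 3, 8 and 8 in the technical ones, and no CD11b+ library had a peak. Of the biological Lin- libraries, the third alone lacked it.

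Mrpl51, a protein found only in mitochondrial ribosomes, had the site shown above in 4 Lin- libraries, with 24, 3 and 5 reads in the biological and 7, 0 and 0 in the technical ones. CD11b+ library 2 had 3 reads at the same place. Every biological Lin- library thus had the peak, the first with the most reads.

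Mrpl2, the homologue of a bacterial protein close to the peptidyl transferase centre, had a peak in all 3 biological Lin- libraries, with 9, 4 and 3 reads, and in technical library 5 with 5 reads. It had none in CD11b+ cells. The Mrpl12 protein forms the stalk that recruits translation factors. Its site had 5, 0 and 5 reads in the biological Lin- libraries and 3 in technical library 4, with none in CD11b+ cells.

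Mrpl24, whose homologue lines the exit of the peptide tunnel, had a peak in all 4 CD11b+ libraries at the intron site shown above. The reads were 34 and 4 in the biological libraries and 39 and 3 in the technical ones, so libraries 1 and 3 were high and 2 and 4 low. No Lin- library had this site. Lin- library 1 had another, of 4 reads, whose centre lay 19 nt upstream of the 3′ splice site of intron 2.

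Mrpl43, which exists only in mitochondrial ribosomes, had a 150 nt site with 10 and 15 reads in Lin- libraries 1 and 2, 4 in technical library 4 and 3 in CD11b+ library 1. Its centre lay in intron 2 of the longest coding transcript and in an exon of another transcript, and the site ran through the whole of that short intron into both neighbouring exons. Mrpl4 and Mrpl9, homologues of bacterial large subunit proteins, had a peak in 2 Lin- libraries each, with 3 to 6 reads, at different sites.

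Among small subunit members, Mrps26, a protein without a bacterial homologue, had the intron site shown above in both cell types, with 7 reads in Lin- library 2, 3 in technical library 4, and 7 and 8 in the biological CD11b+ libraries. It was the only site of a member seen in both biological CD11b+ libraries besides that of Mrpl24. Mrps27, a pentatricopeptide repeat protein, shared a site in intron 4 between Lin- library 2 with 4 reads, CD11b+ library 2 with 7 and technical CD11b+ library 4 with 4. Mrps16 had 3 reads in Lin- libraries 2 and 5 and 5 in CD11b+ library 2 at 1 site in its first intron.

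Mrps18b had 4 and 9 reads in Lin- libraries 2 and 3, and Mrps34 had 5 and 3 in libraries 1 and 4, each at 1 site upstream of a 3′ splice site. Mrps10 had peaks of 3 reads in 3 Lin- libraries at 2 such sites, and Mrps15 had 3 and 4 reads in technical libraries 4 and 5 at 1. Mrps17 had a 3′ UTR site of 4 reads in Lin- library 3 and in CD11b+ library 2. Mrps28 had 9 and 7 reads in Lin- libraries 3 and 5 within an intron. Mrps35 had peaks in both biological CD11b+ libraries, of 4 and 3 reads, at different sites and none in Lin- cells.

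These 18 members were chosen for a peak in at least 2 libraries of 1 cell type, so their numbers of peaks in the cell types are a description and no test of a difference is given. Of the biological libraries, all 3 of Lin- cells and neither of CD11b+ cells had a Mrpl2 peak, and the reverse held for Mrps35. These Mrpl2 peaks had 3 to 9 reads, and the Mrps35 peaks had 3 and 4 at different sites. How many of all genes separate in this way was not counted, so no cell type difference is read from it. Whether biological replicates came from separate animals is not stated.

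In the longest coding transcript, 38 of 45 merged member peaks of Lin- cells had their centre in an intron (84.4%), against 77% of 20458 peaks of all genes. In CD11b+ cells 19 of 22 did (86.4%), against 80.8% of 17603. Counted over all annotated transcripts, where retained introns are exons, the members' shares were 55.6% (interval 41.2 to 69.1%) and 50% (30.7 to 69.3%), against 64.2% and 75.4% for all genes. Genes of like level and length stood at 57.6% in Lin- and 65% in CD11b+ cells on this count. In the longest coding transcript they stood at 78.9% and 78.3%. Exon sites were few. Coding exons of Mrps7, Mrps15, Mrps26 and Mrpl34 held 1 Lin- site each, and another coding exon of Mrps7 held 1 of 3 reads in CD11b+ library 3. The 5′ UTR of Mrpl42 held a site of 4 reads in Lin- library 2, and 3′ UTRs of Mrps17, Mrps26 and Mrpl48 held 1 each over both cell types.

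The centre of the peak lay at most 50 nt upstream of a 3′ splice site, and nearer to it than to any 5′ splice site, in 29 of 45 merged member peaks of Lin- cells (64.4%, Wilson 95% interval 49.8 to 76.8%). This was 39.8% of the peaks of all genes and 51.3% of those of genes of like level and length. In CD11b+ cells the share was 4 of 22 (18.2%, interval 7.31 to 38.5%), against 10.5% and 18.6%. A 3′ splice site is where an intron ends, and a peak there covers intron bases that spliced mRNA lacks. Of the 60 sites, 31 were of this kind, in 28 members, and 24 of the 31 ran into the exon. Their centres lay 1 to 39 nt upstream, with a median of 23 nt. This measure was chosen after the positions of member peaks had been seen.

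**Figure D3:**
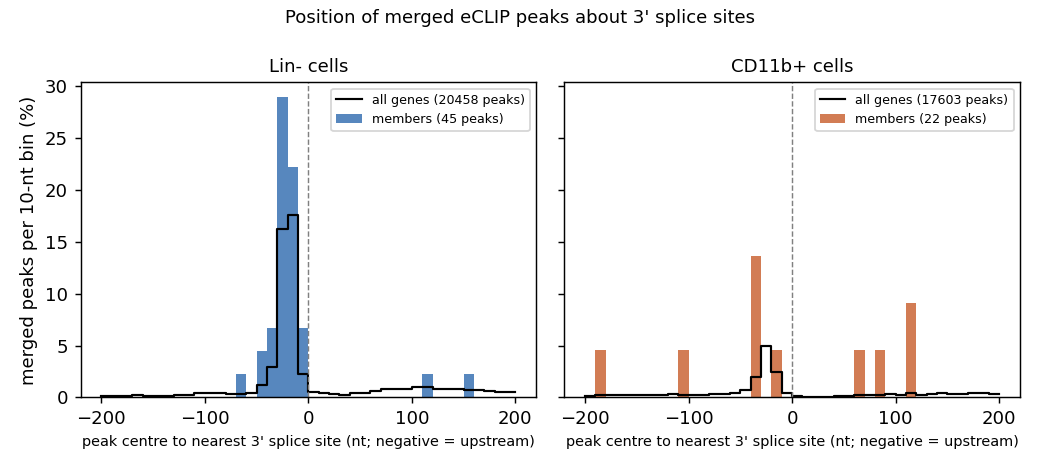
Merged eCLIP peaks (y axis, percent per 10-nt bin) by the distance of their centre from the nearest 3′ splice site (x axis, nt, negative is upstream) in Lin- cells (left) and CD11b+ cells (right). Bars are the members (45 and 22 peaks) and the line is all genes; in Lin- cells 28.9% of member peaks lie in the bin from -30 to -20 nt.

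The share varied between libraries as well as between cell types. In the biological Lin- libraries 13 of 14, 5 of 15 and 14 of 19 member peaks were of this kind (92.9, 33.3 and 73.7%), and in the biological CD11b+ libraries 2 of 12 and 1 of 10 (16.7 and 10%). The groups did not overlap, with means of 66.6% ± 30.4 (SD, n = 3) and 13.3% ± 4.74 (SD, n = 2), and the two-sided exact permutation test gave p = 0.2, the smallest it can give. All genes showed the same order, with 56.1, 17.3 and 41.6% in Lin- and 10.7 and 9.28% in CD11b+ libraries and an exact permutation p of 0.2, so the difference between cell types is not particular to the members. The technical Lin- libraries had 9 of 9, 5 of 7 and 2 of 2. Without Lin- library 2 the merged share in Lin- cells was 81.1%. With technical libraries counted, the members were above all genes in 9 of 10 libraries and above genes of like level and length in 8. Technical libraries are not independent of the biological ones, and some hold few member peaks. In the technical CD11b+ libraries 1 of 3 and 0 of 2 were of this kind.

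IGF2BP proteins are known to prefer RNA with CA-rich elements. The letters ACACAC or CACACA, which overlap in a longer repeat, were looked for on the transcribed strand of the merged peaks. They occurred in 2 of 45 member peaks of Lin- cells (4.44%, interval 1.23 to 14.8%), against 8.37% of all genes' peaks, and in 1 of 22 of CD11b+ cells (4.55%, interval 0.807 to 21.8%), against 17.1%. Among peaks of genes of like level and length the shares were 5.3% in Lin- cells, close to the members, and 13.7% in CD11b+ cells. Both of these values lie within the members' intervals. The median length was 54 nt for members and 51 nt for all genes in Lin- cells, and 50 and 54 nt in CD11b+ cells. The 3 sites with these letters are those of Mrps9 (chr1:42858772-42858830, + strand, intron 1, CD11b+ library 2, 5 reads), Mrps28 (chr3:8895341-8895439, - strand, intron 2) and Mrps18b (chr17:35912395-35912455, - strand, intron 4). The first and second are CA repeats within introns, shown 5′ to 3′ with the searched letters in capitals. In the window of the third the capitals are exon bases and the letters stand in lower case before them.
Mrps9: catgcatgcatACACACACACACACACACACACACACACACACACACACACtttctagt
Mrps28: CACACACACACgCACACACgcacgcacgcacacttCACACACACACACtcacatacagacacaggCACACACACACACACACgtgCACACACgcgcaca
Mrps18b: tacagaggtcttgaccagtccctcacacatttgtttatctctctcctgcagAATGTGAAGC
The Mrps28 repeat also had a peak of 5 reads in smInput library 4 of Lin- cells, the only site of a member that overlapped an smInput peak of any library. The filter used by the authors had removed no member peak. Of all genes' peaks, the same filter took out 16.9% over the Lin- libraries and 13.6% over the CD11b+ ones.

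The members were expressed well in both cell types, each with a mean normalized count of at least 100 in both tables. Per kilobase of exon, their median level was at the 81.1th percentile of genes in Lin- cells (range of the members 56.9 to 96.1) and at the 76.6th in CD11b+ cells (54.8 to 96.3). Cytoplasmic ribosomal proteins had medians at the 99.1th and 98.4th percentile and oxidative phosphorylation genes at the 91.8th and 90.6th. The tables were normalized separately, so percentiles and not counts were compared between cell types, without a test since values per library were not used.

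The highest members per kilobase in Lin- cells were Mrpl34 at 1504 mean normalized counts per kilobase, Mrpl12 at 1100, Mrpl24 at 1058, Mrps28 at 996.1 and Mrpl54 at 975.1. In CD11b+ cells they were Mrps28 at 1911, Mrps21 at 1002, Mrpl54 at 708, Mrpl24 at 695.7 and Mrpl18 at 664.7. Mrps28, Mrpl24 and Mrpl54 were among the 5 highest in both. The lowest were Mrpl48 at 65.58, Mrpl23 at 71.84, Mrps35 at 103.4, Mrpl17 at 105.3 and Mrps25 at 106.8 in Lin- cells. In CD11b+ cells they were Mrpl47 at 40.14, Mrps22 at 52.07, Mrps35 at 54.14, Mrps31 at 54.36 and Mrps10 at 55.69, so that Mrps35 was low in both.

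The percentile was higher in Lin- cells for 59 members and higher in CD11b+ cells for 16, and for 47 the 2 values lay within 5 points. The share of all genes with a higher percentile in Lin- cells was not counted. Genes were ranked within their own table, and the tables list 26560 genes for Lin- and 25887 for CD11b+ cells. The median difference was 3.35 points among the members and 2.31 among all genes in both tables, so the median gene also stood higher in Lin- cells. It was 0.658 for cytoplasmic ribosomal proteins and 1.75 for oxidative phosphorylation. Mrpl38 was 13.1 points higher in Lin- cells, Mrpl1 10.6, Mrpl50 10.4, Mrps27 9.96 and Mrps31 9.16.

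In the other direction Mrps36, whose product is now placed in the oxoglutarate dehydrogenase complex rather than the ribosome, stood at the 64th percentile in Lin- cells and the 80.1th in CD11b+ cells. Mrpl23, which sits near the exit of the peptide tunnel, stood at the 57.9th and the 72.8th. Mrpl51 stood at the 66.8th and 76.6th, although its eCLIP site was seen in 4 Lin- libraries and 1 of CD11b+ cells. Mrpl17 and Mrpl48 differed by under 6 points. Across the 75 members, Spearman's rho between the mean normalized counts of the cell types was 0.635 and Pearson's r of their log10 values 0.645. Both are descriptions over genes, which share libraries and normalization.

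**Figure D4:**
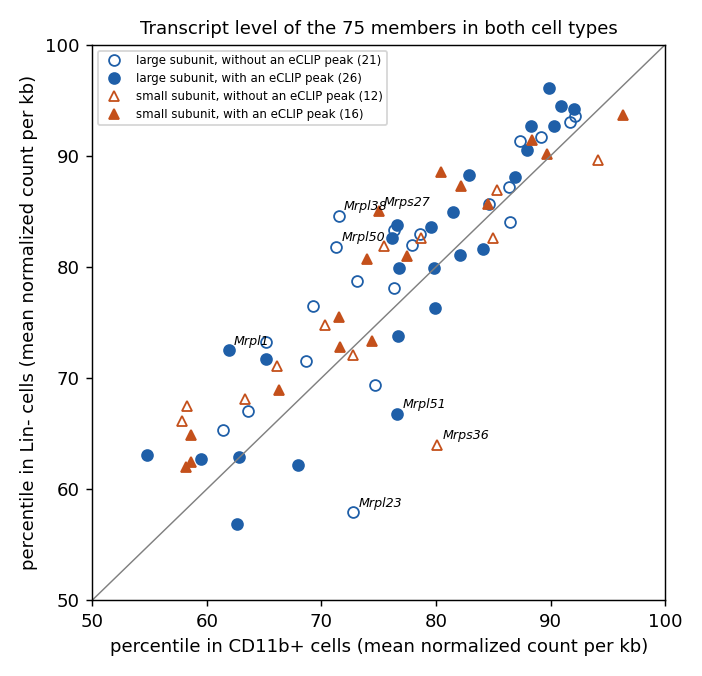
Percentile of the 75 members by mean normalized count per kilobase in CD11b+ cells (x axis) and Lin- cells (y axis), 1 point per gene, filled where the gene had an eCLIP peak; the line marks equal percentiles. Most points lie above the line (59 of 75), with Mrps36 and Mrpl23 farthest below it. The share of all genes above the line was not counted.

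Other genes of mitochondrial translation were taken from lists. The first list has 6 genes without the Mrp name, those of mitochondrial ribosome proteins and Oxa1l, a membrane insertase that binds this ribosome. All 6 had a peak in Lin- cells and 3 of 6 in CD11b+ cells, against the 29.5% and 27.8% of all genes and 43.1% and 40.8% of protein-coding genes. Their median mean normalized count in Lin- cells was 1573, against 120 for all genes, so neither background is like them in level. Oxa1l had its peak in 1 Lin- library. Ptcd3, a pentatricopeptide repeat protein of the small subunit, had one in 4 of 6 Lin- and 4 of 4 CD11b+ libraries, and also in 4 smInput libraries. Dap3, the GTP-binding protein of the small subunit, had one in 1 library of each.

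Of 24 assembly factors 7 had a peak in Lin- (29.2%) and 4 in CD11b+ cells (16.7%), against 29.5% and 27.8% of all genes. Of protein-coding genes 43.1% and 40.8% had one. The RNA helicase Dhx30 led the assembly factors, with a peak in 4 Lin- and 3 CD11b+ libraries. Of 16 translation factors 10 (62.5%) and 7 (43.8%) had one. The translational activator Taco1 had one in 5 Lin- and 4 CD11b+ libraries, and C1qbp, a matrix protein that binds RNA and assists mitochondrial translation, in 6 Lin- and no CD11b+ library. Of 17 mitochondrial tRNA synthetases 8 (47.1%) and 6 (35.3%) had one, with Rars2 in 6 Lin- libraries and 1 CD11b+ library, and Lars2 in 5 and 4. Lars2 also had a peak in all 10 smInput libraries. Gtpbp5 is not in both tables under that symbol and was not counted.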

How the data were processed

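Members and lists were chosen with earlier results of these data known. RNA-seq reads (single-end, stranded) had been aligned to mm10, for which the submitters' processing notes name STAR 2.5.3a and Bowtie2, and the authors compared the genotypes with DESeq2. The deposited tables hold a mean normalized count (a signal value, used here) and columns of the authors' own comparison (fold changes, standard errors, test statistics, p-values and calls), which were not used. For eCLIP, the authors ran CLIPper on each library and dropped peaks that overlap smInput peaks. A deposited value of at most 0.05 stands beside each peak in an unnamed column, taken here as the p-value of CLIPper. Per the file headers, smInput peaks were called with other settings than eCLIP peaks.

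Peaks were given to genes by the Ensembl identifier in their name and merged where they overlapped by at least 1 nt on the same strand. A peak centre was placed in the order coding exon, UTR, other exon, intron with GENCODE M21. Levels were divided by the union of exons in kilobases and ranked within each table. Sequences came from GRCm38.p6. Python 3.11.15, NumPy 2.4.6, SciPy 1.17.1 and matplotlib 3.10.9 were used, and the procedures were checked on simulated data. Wilson intervals (95%) were used for shares and reflect counting error alone.

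Genes named are members with a peak in at least 2 libraries of a cell type, the 5 highest and 5 lowest per kilobase, the 5 with the largest percentile difference in each direction, and at most 5 genes of each list by libraries with a peak. Mrpl33, Mrps6, Mrps7, Mrps9, Mrpl3, Mrpl13, Mrpl19, Mrpl42, Dap3, Oxa1l and Gtpbp5 were named after their values were seen. Alternatives varied libraries, thresholds, assignment, annotation, motif and length. Some marker genes are not reported here.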

Additional observations from a re-analysis of the deposited data

Results flagged for a closer look

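Of 80 groups of 4 or 6 libraries examined, 15 had a library far from the others by Dixon's criterion at 95%, where chance gives about 1 in 20 for measured values. Most are groups in which a single library had a peak or a single library lacked one. Where all other libraries share the same count, Dixon's ratio takes its highest value by construction. Some genes were also flagged for both peaks and reads, so 15 of 80 cannot be set against 1 in 20. Among Lin- libraries, Mrpl24 had 1 peak, of 4 reads, in library 1 and 0 in the others, and Mrpl20 had 0 peaks in library 3 and 1 in each other library. The largest Mrpl51 peak had 24 reads in Lin- library 1 and at most 7 elsewhere. Among CD11b+ libraries, Mrpl24 had 2 peaks in library 1 and 1 in each other. Mrpl51 (library 2, 3 reads), Mrps15 (library 1, 4 reads), Mrpl43 (library 1, 3 reads) and Mrps16 (library 2, 5 reads) had 1 peak in a single CD11b+ library each.

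In the smInput libraries, member peaks made up 4.61 per 1000 peaks in Lin- library 5, which held 217 peaks and 1 member peak, against 0.955 to 2.25 in the other Lin- inputs. In CD11b+ cells, 2 members had a peak in smInput library 3 and 3 in each other input.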

How the results depend on the processing

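No paired analysis was possible because same-numbered libraries are an eCLIP library and its smInput, whose peaks were called with other settings, and the comparison of cell types has no pairs. The counts of members with a peak were 35 in Lin- cells, 19 in CD11b+ cells and 12 in both. They stayed within 1.5 times of this with biological libraries only, without the smInput filter, by overlap with the gene body and with a minimum mean of 100. With a peak in at least 2 libraries they were 16, 5 and 3, with at least 2 biological libraries 10, 4 and 1, and with a CLIPper p below 0.001 10, 2 and 1. Leaving out 1 library in turn gave 27 to 35, 12 to 19 and 9 to 12; the 12 in CD11b+ cells is without library 1.

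The intron share in Lin- cells, 55.6%, was 15.6% with exons counted at any overlap, 84.4% in the longest coding transcript, 40% with a CLIPper p below 0.001 and 50 to 64.9% without 1 library. In CD11b+ cells, 50% became 86.4% in the longest coding transcript and 40 to 66.7% without 1 library. Motif shares were 20% with CACA in Lin- cells, 4.55 to 6.45% without 1 Lin- library and 0 to 8.33% without 1 CD11b+ library, the 0 without library 2. The share upstream of 3′ splice sites was 60.5 to 81.1% without 1 Lin- library, the 81.1% without library 2, and 15 to 20% without 1 CD11b+ library, and it fell to 4.55% within 30 nt in CD11b+ cells. All settings for the splice-site share, and leaving out libraries for the intron and motif shares, were added after the data had been seen. Median percentiles were 70 and 62.6 among genes with a mean of at least 10, and 73.3 and 72.4 without correction for length, in Lin- and CD11b+ cells. The exact permutation test of peak numbers between cell types over 18 members is void, since the members were chosen by those peaks and 3 against 2 libraries allow no p below 0.2. It passed 0 of them at 0.05, and 2 with technical libraries counted as independent, which is void as well. Few reads per peak limit the counts.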

Other observations

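Some members had peaks in the smInput libraries, which serve as the background of eCLIP. Mrpl3 had an smInput peak in all 10, from chr9:105064805 on, with 4 to 207 reads, and no eCLIP peak. It lies in an intron of the longest coding transcript and overlaps Gm38077 and the antisense gene Gm47106. Mrpl17 had a coding-exon peak, from 10 to 61 reads, in 7 smInput libraries, where a pseudogene, Gm15645, overlaps, while its only eCLIP peak had 3 reads at another place. Mrpl13 had an exon peak of 3 reads in 3 CD11b+ inputs, Mrps28 had peaks of 5 reads in 2 Lin- inputs and Mrpl19 a 3′ UTR peak of 3 reads in 1. Among the lists, Gfm2 and Lars2 had a peak in all 10 smInput libraries.

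Lin- libraries 2 and 5 stood apart from the other Lin- libraries in the share of all peaks at most 50 nt upstream of a 3′ splice site. The share was 17.3 and 16.3% in these, 56.1 and 53% in libraries 1 and 4, and 41.6 and 38.7% in libraries 3 and 6. The labels do not say which technical library belongs to which biological one.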
